A study of Mus musculus with 10 samples.

Results

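The genes described here drive and time the cell division cycle: cyclins and their kinases, Cdc25 phosphatases, E2F transcription factors and the retinoblastoma family, the replication licensing machinery, and kinases and regulators of mitosis. The list held 46 genes and left out the inhibitors of cyclin-dependent kinases. All 46 were among the 20665 autosomal coding genes of the RefSeq table. Each open chromatin region was given to whichever coding gene lay closest, up to 100 kb away, and 151 of 67113 such assigned regions fell to 44 of these genes. Regions within 1 kb of a gene end (47) were separated from distal regions (104), of which 52 lay inside the gene and 52 outside it.

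ATAC-seq, which maps open chromatin by transposase insertion, was compared between mouse groups at E13.5: SoxC double knockout cochlea (2 libraries) and wildtype cochlea (3 libraries). SoxC names the Sox4, Sox11 and Sox12 family of transcription factors. The tissue was labelled as cochlear duct epithelium cells, although the titles named the whole organ, so other cell types may be present. The driver Pax2cre with floxed SoxC alleles was named for a single-cell knockout library that was not analysed here, and for the ATAC libraries the labels gave only the genotype. CUT&RUN, an antibody-directed cleavage assay, gave Sox4 peaks for 3 replicates of sorted wildtype progenitors positive for p27, and no control antibody library was used here.

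As background, cells pass from G1 into S phase when D-type cyclins with Cdk4 or Cdk6 phosphorylate Rb1 and its relatives, which frees E2F factors to switch on cyclin E, replication and nucleotide genes. Mitotic genes such as Top2a and Cdc20 are repressed and activated as a later wave through a promoter element called the cell cycle homology region (CHR), often beside CCAAT boxes. In the cochlea, prosensory progenitors leave the cell cycle around the stage sampled, in a wave from apex to base that follows p27, a CDK inhibitor.

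The deposited values were peak lists, so neither read counts nor depth could be recovered. Each list was ranked by the authors' -log10 p, with rank 1 the strongest peak, and the 50000 strongest autosomal peaks of a library counted as open. The deposited lists held 299829 and 266873 peaks in the knockout libraries, against 196536, 166874 and 196345 in wildtype. The lists differed with genotype in other ways as well: -log10 p at rank 50000 was 104 and 50.5 in the knockout libraries, against 19.0, 10.5 and 8.75 in wildtype, and the median width of the kept peaks was 699 and 615 bp in the knockout libraries, against 499, 437 and 443 bp. Effects of the genotype and of list making therefore cannot be told apart. Peaks over the Sox4 and Sox11 genes were present in all 5 libraries (ranks 6566 and 3681 for Sox4 in the knockout libraries, 5543, 5258 and 5686 in wildtype), but the deleted stretch is not given in the sources used here, so this checks nothing.

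Cell type markers were read as open gene ends. Of 8 epithelial markers, 7 and 7 were open in the knockout libraries, against 8, 8 and 7 in wildtype. Neuronal markers numbered 3 and 3 of 5 in the knockout libraries, against 4, 4 and 3 in wildtype. Markers of mesenchyme were open at 3 and 3 of 6 genes in the knockout libraries, against 3, 3 and 4 in wildtype, and glial and melanocyte markers at 2 and 2 of 4, against 2, 2 and 1. For blood, endothelium and macrophages, 1 of 6 was open in every library, and no gene-end region was found at Hba-a1, Pecam1, Cdh5, Ptprc or Csf1r. Of the 19 markers with a gene-end region, 7 ranked weaker in both knockout libraries than in every wildtype library and 2 stronger, where 26% and 33.4% of all gene-end regions did so on common ranks. The weaker ones were the neuronal genes Isl1 (23673 and 24488 in the knockout libraries, against 1812, 1375 and 900 in wildtype) and Pou4f1, the epithelial genes Gata3 (54835 and 57143, against 12639, 25289 and 23159) and Eya1, and Tbx18, Twist1 and Col1a2 of mesenchyme. The stronger ones were Pax2 and Sox10, and the neuronal genes Tubb3 and Nefl overlapped between the genotypes. Their part in the results on the cell cycle genes was not tested.

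Promoters carry the sequences to which these genes are tied in common. RefSeq promoters on GRCm38.p6 (250 bases before to 50 after the transcript start) were found for 35 of the 46 genes, 40 promoters in all. E2F sites were searched as TTTCCCGC, TTTCGCGC, TTTGCCGC and TTTGGCGC, the CHR as TTTGAA, the CCAAT box as CCAAT and Sox sites as AACAAAG and AACAATG, each on both strands, and matches may overlap, as do an E2F match and a CCAAT box in a Mcm7 promoter. An E2F match was present in 13 of the 40 promoters (32.5%), against 2.85% of 20085 coding promoters. CHR letters were in 14 (35.0%), against 15.4% of all promoters, and a CCAAT box in 28 (70.0%), against 38.1%. Sox letters were found in 2 promoters (5.00%), against 7.85% of all, and those were Ccnb2 and Skp2. E2F matches were found at the replication genes Mcm3, Mcm5, Mcm6, Mcm7, Cdc6 and Cdt1, at Cdc25a, Cdk1 and Cdk2, and at E2f2, E2f3, E2f7 and Rbl1. Of these promoters, those of Cdk1 and E2f3 held a CHR match as well. Such matches are letters in a window and were not tested for binding.

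The 7 promoters below are shown because the results turn on them, in lower case with matches to these motifs in capitals. Ccna1 and E2f7 lost rank in the knockout libraries, Top2a gained the most by -log10 p, Mcm3 led the gene ends by its weakest rank, and the other 3 overlapped Sox4 sites.
Ccna1, chr3:55055006-55055305, minus strand: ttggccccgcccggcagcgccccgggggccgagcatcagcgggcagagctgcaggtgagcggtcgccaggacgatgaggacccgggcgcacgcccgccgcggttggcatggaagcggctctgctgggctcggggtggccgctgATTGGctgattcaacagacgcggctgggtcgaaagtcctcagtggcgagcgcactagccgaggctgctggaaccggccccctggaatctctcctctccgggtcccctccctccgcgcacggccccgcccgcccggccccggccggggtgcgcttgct
E2f7, chr10:110745189-110745488, plus strand: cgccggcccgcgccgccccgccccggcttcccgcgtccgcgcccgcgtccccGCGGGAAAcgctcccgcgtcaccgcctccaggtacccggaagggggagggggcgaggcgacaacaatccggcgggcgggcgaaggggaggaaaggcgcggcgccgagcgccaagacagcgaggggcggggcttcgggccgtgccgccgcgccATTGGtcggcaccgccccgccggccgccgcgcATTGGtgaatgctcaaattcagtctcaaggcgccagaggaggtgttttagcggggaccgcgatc
Top2a, chr11:99024140-99024439, minus strand: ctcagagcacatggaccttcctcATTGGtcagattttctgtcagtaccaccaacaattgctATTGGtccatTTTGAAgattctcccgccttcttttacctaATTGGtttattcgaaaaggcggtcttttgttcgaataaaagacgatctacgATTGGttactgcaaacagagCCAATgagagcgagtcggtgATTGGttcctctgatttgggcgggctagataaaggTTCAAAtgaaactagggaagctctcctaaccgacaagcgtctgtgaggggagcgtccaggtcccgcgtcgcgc
Mcm3, chr1:20820263-20820562, minus strand: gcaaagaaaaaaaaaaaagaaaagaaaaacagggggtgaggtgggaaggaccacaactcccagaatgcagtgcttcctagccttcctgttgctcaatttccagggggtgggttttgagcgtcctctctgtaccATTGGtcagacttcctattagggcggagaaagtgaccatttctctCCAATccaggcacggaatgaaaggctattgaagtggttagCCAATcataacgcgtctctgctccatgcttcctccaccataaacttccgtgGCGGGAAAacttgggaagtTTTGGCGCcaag
E2f3, chr13:29986014-29986313, minus strand: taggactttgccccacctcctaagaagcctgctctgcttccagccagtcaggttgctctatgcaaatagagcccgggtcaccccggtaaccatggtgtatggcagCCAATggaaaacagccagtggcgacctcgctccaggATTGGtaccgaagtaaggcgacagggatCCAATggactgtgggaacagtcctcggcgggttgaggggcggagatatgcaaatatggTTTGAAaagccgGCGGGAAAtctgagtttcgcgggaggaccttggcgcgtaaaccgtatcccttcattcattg
Mcm7, chr5:138171217-138171516, minus strand: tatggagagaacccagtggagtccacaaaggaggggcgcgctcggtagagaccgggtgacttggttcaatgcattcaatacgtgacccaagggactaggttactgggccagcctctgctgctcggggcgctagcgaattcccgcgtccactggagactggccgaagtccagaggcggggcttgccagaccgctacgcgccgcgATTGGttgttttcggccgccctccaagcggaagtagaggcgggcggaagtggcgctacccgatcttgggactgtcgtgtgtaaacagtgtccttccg
Pcna, chr2:132253131-132253430, minus strand: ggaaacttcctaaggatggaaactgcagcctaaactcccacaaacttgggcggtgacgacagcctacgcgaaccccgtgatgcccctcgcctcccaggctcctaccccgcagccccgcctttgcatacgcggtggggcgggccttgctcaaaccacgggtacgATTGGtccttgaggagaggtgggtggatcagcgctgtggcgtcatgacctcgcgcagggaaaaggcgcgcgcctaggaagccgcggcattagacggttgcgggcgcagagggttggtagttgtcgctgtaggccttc
Top2a held 6 CCAAT boxes and 2 CHR matches and no E2F match, with the CHR match nearest the start beginning at -23, counted from the transcript start. Mcm3 held E2F matches at 20 and 39 downstream of the start. In the E2f3 promoter an E2F match at -11 followed a CHR match at -23 and 3 CCAAT boxes. E2f7 had an E2F match at -198, far upstream, while the promoters of Ccna1 and Pcna and the Mcm7 promoter shown held 1 CCAAT box each and neither an E2F nor a CHR match.

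Open gene ends were the rule among these genes. A gene-end region was open in all 5 libraries for 39 of 46 genes (84.8%, exact 95% binomial interval 71.1 to 93.7%, covering counting error only), against 47.0% of all coding genes. The 70 other cell cycle genes listed for comparison, from origin recognition to the kinetochore, had 52 (74.3%). Among genes with such a region, the median list rank of the best one was 5872 and 5208 in the knockout libraries, against 5684, 7680 and 6180 in wildtype. Over all coding genes it was 7562 and 7428 in the knockout libraries, against 7850, 8899 and 9184 in wildtype. In bulk tissue, fewer cells with an open region and less opening per cell cannot be told apart, and expression was not measured in these lists.

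**Figure D1:**
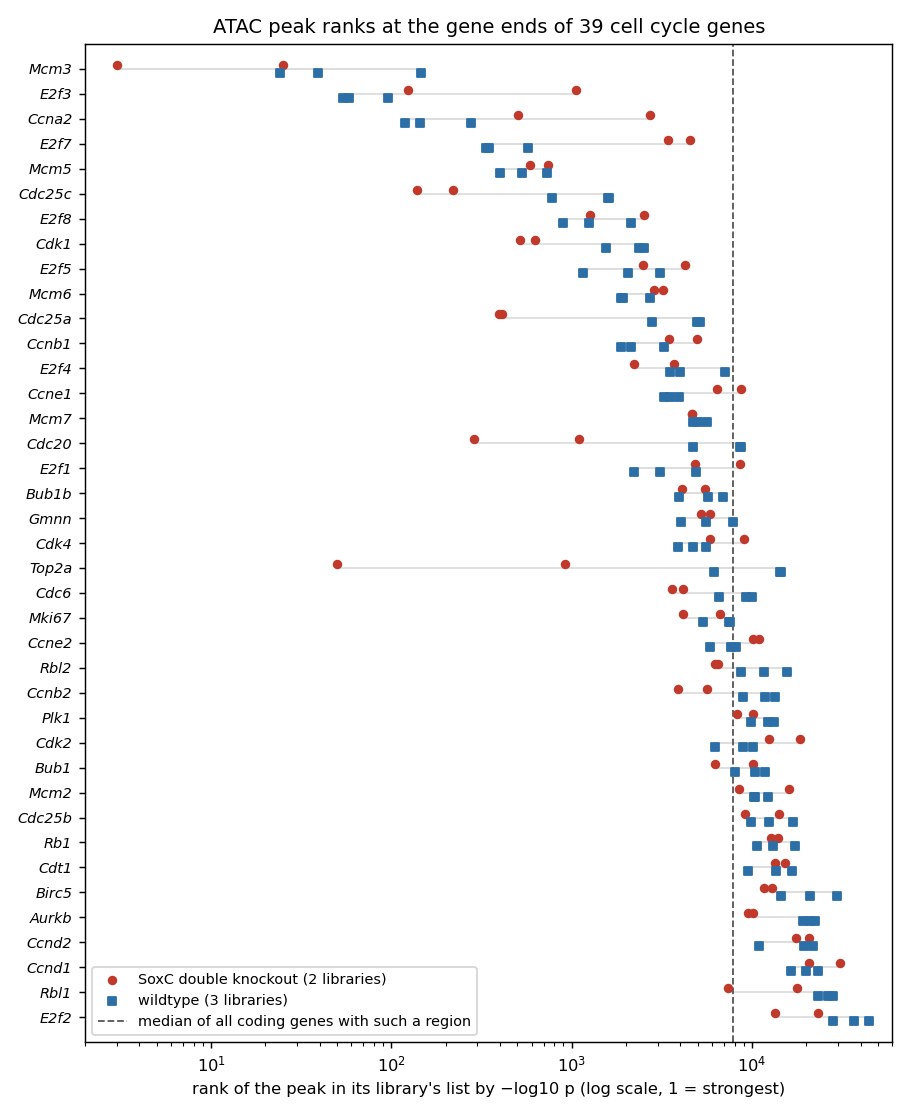
List rank by -log10 p of the best gene-end region (x axis, log scale, 1 = strongest) for the 39 genes open in all 5 libraries, with knockout libraries as red circles above wildtype libraries as blue squares. The dashed line is the middle one of the 5 library medians over all coding genes. Mcm3 lies at the strong end in every library. Wide gaps between genotypes are seen at Top2a, Cdc20 and Cdc25a, stronger in the knockout, and at E2f7, weaker in the knockout.

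Ordered by the weakest of the 5 list ranks, the leading gene ends were those of the replication genes Mcm3 and Mcm5, whose proteins are subunits of the replicative helicase. Mcm3 ranked 25 and 3 in the knockout lists, against 146, 24 and 39 in wildtype. Mcm5 ranked 743 and 584, against 529, 401 and 733. E2f3, an activator E2F, ranked 1055 and 124 in the knockout lists, against 96, 58 and 54 in wildtype, so both knockout libraries placed it lower, and it ranked ahead of Mcm5 in every list but that of knockout replicate 1. Ccna2, the S and G2 phase cyclin A2, ranked 2708 and 502, against 119, 275 and 144. Cdc25c, a phosphatase that activates Cdk1 at mitosis, went the other way, with 139 and 219 against 773, 1597 and 1613. Cdk1, the mitotic kinase itself, ranked 517 and 624 in the knockout lists, against 1543, 2362 and 2528. E2f8, a repressor E2F, ranked 2519 and 1270 in the knockout lists, against 1246, 2121 and 897, and Mcm6, another helicase subunit, 3202 and 2872, against 1878, 1918 and 2723. At Mcm6 the genotypes did not overlap, and at Mcm3, Mcm5 and E2f8 they did.

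For 7 genes no gene-end region of their own was open in all 5 libraries. Of these, 3 shared a promoter region with a divergent neighbour to which the region was assigned. Mcm4, a helicase subunit, faced Prkdc, and that region ranked 1794 and 335 in the knockout lists, against 93, 148 and 339 in wildtype. Pcna, the sliding clamp of DNA polymerase, faced Cds2 (1385 and 331, against 258, 703 and 1057). Aurka, a centrosomal mitotic kinase, faced Cstf1 (2330 and 2035, against 4814, 4201 and 2564). Counting such shared regions, 42 of the 46 genes had an open end, against 53.3% of all coding genes. Pcna also had a region of its own, 209 bp from the gene end, which held the peak summit in some libraries only. Peaks overlapped it in every list, at ranks 1385 and 331 in the knockout and 5623, 3902 and 1057 in wildtype. Ccna1, Ccnd3 and Cdk6 had regions inside the gene model instead, and these covered an annotated RefSeq promoter. The Ccna1 region lay 2226 bp from the gene end. The Ccnd3 region lay 5993 bp away and ranked 17784 and 12994 in the knockout lists, against 7355, 9561 and 14657 in wildtype, which overlapped. The Cdk6 region ranked 24728 and 14618 in the knockout lists, against 11858, 44418 and 12677. Skp2, the F-box protein that targets p27 for destruction, had 1 region, 8001 bp inside the gene, and none over its 2 promoters.

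Distal regions were spread unevenly. They were found at 29 of the 46 genes, with 13 at Cdk6, 8 each at Ccnd3 and Ccna1 and 7 each at Ccne1, Ccnd1 and E2f7. Among the 104 distal regions 39 (37.5%) were open in all 5 libraries, against 30.7% of all distal regions, and among the 47 gene-end regions 41 (87.2%), against 67.6% of all gene-end regions. The distal region whose weakest list rank was best lay 12688 bp outside Ccne1, the gene of cyclin E1, which acts at S phase entry (chr7:38084759-38085296), with 6133 and 1972 in the knockout lists, against 1576, 1276 and 604 in wildtype. Every knockout rank there was weaker than every wildtype rank, as in 26.2% of all assigned regions with a peak in all 5 lists. The next, 36357 bp from Ccne1, ranked 8071 and 6466, against 6418, 4015 and 4135.

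Regions in 1 genotype only were 14 for the knockout (9.27%, against 8.48% of all assigned regions) and 5 for wildtype (3.31%, against 5.79% of all). Both shares lay near those of all regions. Here the knockout set is open in both knockout libraries and no wildtype library, and the wildtype set in all 3 wildtype and no knockout library. Among the pocket protein genes, which restrain E2F, 3 of 7 regions of Rb1, 2 of 3 of Rbl1 and 0 of 2 of Rbl2 were knockout regions. E2F and retinoblastoma family genes together had 6 of 42 (14.3%, against 8.48% of all assigned regions), a departure that was not tested. Inside Rbl1, the p107 gene, a region at chr2:157170066-157170575 ranked 15147 and 19036 in the knockout lists and had no peak of any rank in the 3 wildtype lists. Inside Rb1, chr14:73280908-73281421 ranked 37852 and 44215 in the knockout lists and likewise had no wildtype peak. The other Rb1 regions (40203 and 48293, and 27642 and 30439, in the knockout lists) and the other Rbl1 region (39896 and 49933) had weak peaks past rank 50000 in some wildtype lists.

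The other knockout regions had weak peaks past rank 50000 in at least 1 wildtype list. Cdc25a, the phosphatase that opens S phase, had 2 of them, at 7108 bp inside the gene (24922 and 24778 in the knockout lists, 54742 and 124083 in wildtype replicates 1 and 3 and no peak in replicate 2) and at its far end (42053 and 44959, against 59987 and 60793 in replicates 1 and 3). Mki67, the proliferation marker Ki-67, had 2 outside the gene, at 19811 bp (29907 and 36321, against 67228, 63056 and 65602) and 74479 bp (27544 and 31061, against 76367 and 74145 in replicates 1 and 2). Bub1b, the spindle checkpoint kinase BubR1, had 1 inside the gene (24851 and 25416, against 52418, 88709 and 72198). E2f2 had 1 at 3746 bp (36987 and 42299, against 74045, 89738 and 53805). Ccna1, Cdc6 and Gmnn, of which Cdc6 loads the helicase and Gmnn encodes its inhibitor geminin, had 1 each, and knockout ranks there ran between 27106 and 45005.

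Wildtype-only regions sat at E2f7, Cdk6, Ccnd3 and Rbl2. The one 28039 bp outside E2f7, the gene of a repressor E2F (chr10:110716874-110717400), had no peak in either knockout list and ranked 31429, 32788 and 18250 in wildtype. Inside Cdk6, a G1 kinase, chr5:3453899-3454460 ranked 54215 and 53525 in the knockout lists, just past the limit, against 22160, 10717 and 9420. The Ccnd3 region, at the gene of cyclin D3, ranked 110397 and 86049 in the knockout lists, against 27099, 40358 and 36960. For the remaining Cdk6 region and the Rbl2 region, broad knockout peaks with their summits elsewhere covered the place, at ranks 24728 and 14618 for Cdk6 (41337, 35672 and 25453 in wildtype) and 6236 and 6456 for Rbl2 (27270, 11677 and 31320 in wildtype), so a missing summit there is no closed region.

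To compare the genotypes region by region, ranks were taken again among the 61050 regions with a peak in all 5 lists, so that every library had the same length, and are called common ranks below. The test was limma on minus log2 of the common rank, knockout minus wildtype, with Benjamini-Hochberg adjustment over all regions and a call at an adjusted p under 0.05. A difference of 1 means a rank number 2 times smaller in the knockout. Of 128 regions of the cell cycle genes in the fit, 22 were higher in the knockout (17.2%, against 13.8% of all assigned regions) and 10 were lower (7.81%, against 10.2%). The other 23 had no peak in at least 1 list and were not fitted. The split of the calls depended on the peak value used: with peaks ranked by fold enrichment, 11 of 122 regions were higher and 18 lower, against 14.3% and 9.44% of all assigned regions. Under both rankings 5 regions were higher and 7 lower of 120, against 8.20% and 6.79% of all. By share, higher calls lay above the background by -log10 p and below it by fold enrichment, and lower calls the reverse. These departures were not tested.

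The choice of ranking weighed most at gene ends, and it did so for all genes. Ranked by -log10 p, the median difference over all gene-end regions was 0.11, and for the 46 fitted gene-end regions of the cell cycle genes 0.13. Ranked by fold enrichment, the median over all gene ends was -0.49 and that of the cell cycle genes -0.67. Calls at the gene ends of the cell cycle genes were 11 higher (23.9%) and 2 lower (4.35%) by -log10 p, against 16.7% and 11.2% of all gene-end regions. By fold enrichment they were 0 higher and 9 lower of 46, against 6.30% and 16.3% of all. At an unadjusted limma p under 0.05 the counts by fold enrichment were 1 and 16, against 1260 and 4030 of 13281 gene-end regions over all genes. Distal medians moved less, with 0.05 by -log10 p and -0.08 by fold enrichment, against -0.01 and 0.00 over all distal regions. Because of this, called gene-end differences of the cell cycle genes are given below with both values.

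**Figure D2:**
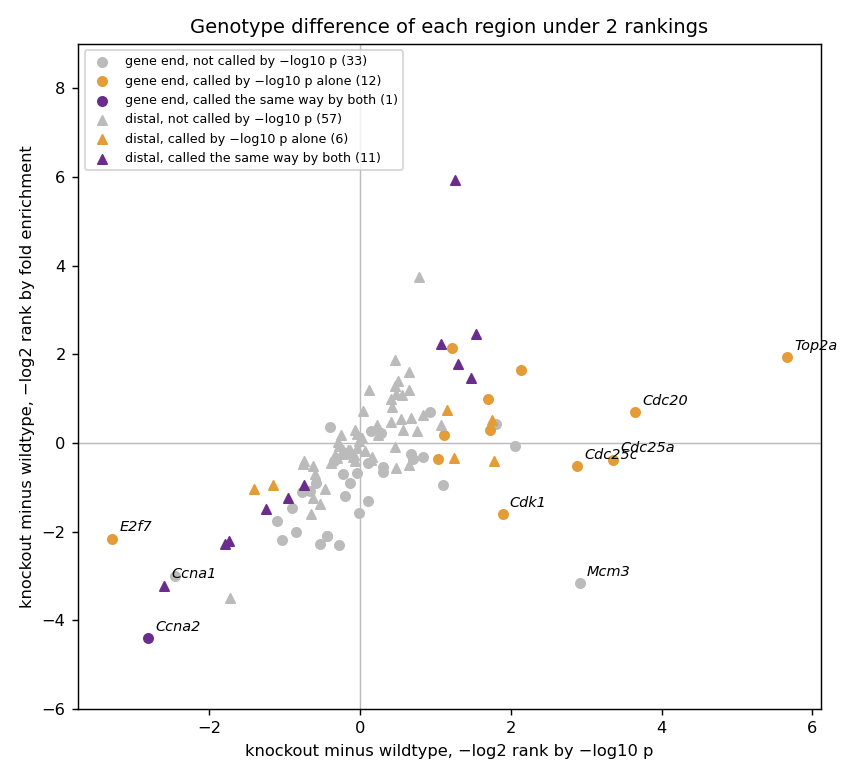
Knockout minus wildtype difference of minus log2 rank by -log10 p (x axis) and by fold enrichment (y axis) for 120 regions of the cell cycle genes, circles for gene ends and triangles for distal regions. Purple marks the 12 regions called the same way by both rankings, and orange those called by -log10 p alone. Top2a, Cdc20, Cdc25a, Cdc25c and Cdk1 lie far to the right but near or below 0 on the y axis or without a call there, whereas Ccna1, Ccna2 and E2f7 lie low on both axes.

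At the cyclin A genes, 1 region each of Ccna1 and Ccna2 fell under both rankings. No other Ccna1 region was called by -log10 p, and 1 rose by fold enrichment alone (1.28, adjusted p = 0.0411). The Ccna1 region over its promoter (chr3:55054881-55055408) had common ranks of 13984 and 16081 in the knockout libraries, against 2742, 2220 and 2468 in wildtype. Fold enrichment of its peak was 16 and 14.2 in the knockout, against 21.9, 20.0 and 16.2. The difference was -2.60 (SE 0.40, limma adjusted p = 0.000941), and -3.22 by fold enrichment (adjusted p = 0.00505). Cyclin A1 is best known from male germ cells, and its promoter has a GC content of 74.0%. At the end of Ccna2 (chr3:36571917-36572464) common ranks were 2844 and 522 in the knockout libraries, against 123, 285 and 150. The difference was -2.81 (SE 0.87, limma adjusted p = 0.030), and -4.41 by fold enrichment (adjusted p = 0.0106). Without knockout replicate 1, in which Ccna2 was lowest, the difference was -1.59 and no longer called (limma adjusted p = 0.375), and without wildtype replicates 1, 2 and 3 the adjusted p was 0.0727, 0.061 and 0.0768.

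E2f7 fell at 2 places. At the gene end (chr10:110745144-110745682) common ranks were 4742 and 3598 in the knockout libraries, against 351, 360 and 598 in wildtype, the furthest fall of the list by -log10 p. By fold enrichment other regions fell further, among them ones of Ccna2, Ccne1, Ccna1, Mcm3, E2f3, Cdk6 and E2f1. The difference was -3.29 (SE 0.59, limma adjusted p = 0.00203) and held without each library in turn, with -2.16 by fold enrichment (adjusted p = 0.0535). The second place lay 68477 bp outside the gene (chr10:110676442-110676962), with 31413 and 32174 in the knockout libraries, against 14338, 8354 and 7190. There the difference was -1.74 (SE 0.37, limma adjusted p = 0.00504), and -2.21 by fold enrichment (adjusted p = 0.019). Without knockout replicate 1 the difference was -1.76 and the call was lost (limma adjusted p = 0.0579). E2f3 differed by -2.46 at its gene end without a call (SE 1.12, limma adjusted p = 0.12), its common ranks being 1091 and 129 in the knockout libraries and 98, 59 and 55 in wildtype, and was called by fold enrichment alone (-3.0, adjusted p = 0.0082).

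The other 4 regions that fell under both rankings were distal ones of Cdk6, Rb1 and Ccnd3. The wildtype-only Cdk6 region had common ranks of 45901 and 45927 in the knockout libraries, against 22532, 10881 and 9644, a difference of -1.79 (SE 0.38, limma adjusted p = 0.00504). Another lay 50677 bp outside Cdk6 and ranked 55981 and 36738, against 22617, 13461 and 22803 (-1.25, limma adjusted p = 0.0182). An Rb1 intragenic region, 43009 bp from the gene end, ranked 38511 and 38680, against 19382, 20542 and 19446. Its difference was -0.96 (SE 0.30, limma adjusted p = 0.0312). The Ccnd3 region described above ranked 58067 and 55299, against 27347, 38922 and 35877, with -0.75 (limma adjusted p = 0.0354). The groups did not overlap in any of the 4, as calls on the same ranks all but require, and over all assigned regions 26.2% were lower and 30.1% higher without overlap. None of the 4 calls held without knockout replicate 1, with limma adjusted p-values of 0.0601 and 0.313 for the Cdk6 regions, 0.279 for Rb1 and 0.354 for Ccnd3. Rb1 and Ccnd3 were also lost without knockout replicate 2 (0.234 and 0.25), and the outer Cdk6 region without knockout replicate 2 (0.0575) or wildtype replicate 2 (0.0523).

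Under both rankings 5 distal regions rose. One lay 34159 bp outside Ccne1 (chr7:38141649-38142207), with common ranks of 12465 and 11312 in the knockout libraries, against 24515, 41206 and 40621. Its difference was 1.54 (SE 0.34, limma adjusted p = 0.00614), and 2.45 by fold enrichment. Across the 8 regions around Ccne1 the differences ran from -1.72, at the strong region 12688 bp away (limma adjusted p = 0.055), to this 1.54. An E2f2 region, 11717 bp outside the gene, ranked 13860 and 18163 in the knockout libraries, against 43263, 48882 and 40474 (1.47, SE 0.30, limma adjusted p = 0.00405). Bub1b rose at its intragenic region (25188 and 25731, against 48549, 58116 and 53869), by 1.07 (SE 0.24, limma adjusted p = 0.00669).

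The last pair of that set belonged to Cdc25 genes. A region 12650 bp outside Cdc25a ranked 12899 and 20073 in the knockout libraries, against 28722, 43351 and 50250 (1.3, SE 0.34, limma adjusted p = 0.0145). One 5768 bp outside Cdc25c ranked 8468 and 11842, against 17827, 22917 and 33968, with a difference of 1.26 (SE 0.37, limma adjusted p = 0.0225). By fold enrichment the Cdc25c region differed by 5.93, since its fold enrichment was 29.5 and 25.4 in the knockout, against 16.7, 9.12 and 5.95. None of these 5 calls held without knockout replicate 1, where limma adjusted p-values were 0.0714 for Ccne1, 0.0888 for E2f2, 0.0606 for Bub1b, 0.235 for Cdc25a and 0.273 for Cdc25c. Without knockout replicate 2 they were 0.0646 for Ccne1 and 0.0648 for Cdc25c, and Cdc25a and Cdc25c were also lost without wildtype replicate 2 (0.055 and 0.0602), Cdc25c without wildtype replicate 3 as well (0.0635).

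**Figure D3:**
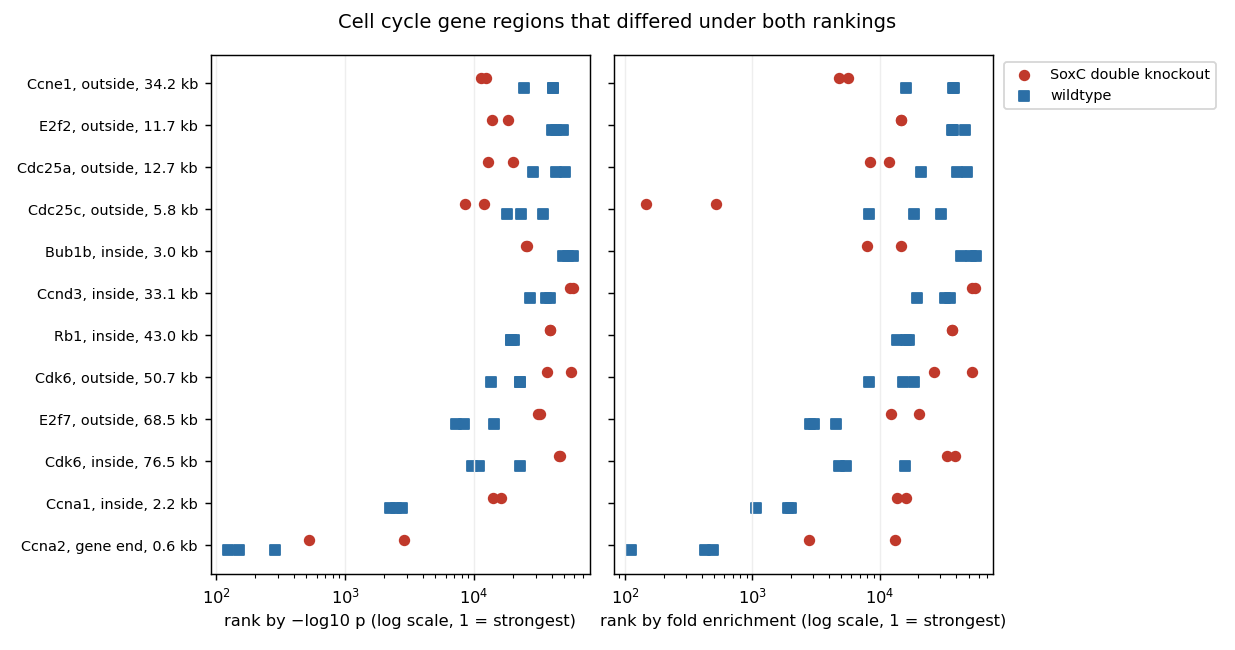
Common ranks of the 12 regions that differed under both rankings, by -log10 p (left) and by fold enrichment (right), on log scales with 1 the strongest; red circles are the 2 knockout and blue squares the 3 wildtype libraries. Labels give the gene, the place of the region and the distance to the nearest gene end. The regions were chosen by calls on these ranks, so the gaps between the genotypes describe the choice.

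Mitotic genes and Cdc25 genes supplied the largest called gains by -log10 p, and these did not hold by fold enrichment. Top2a, the topoisomerase that untangles chromosomes for mitosis, had gene-end common ranks of 50 and 959 in the knockout libraries, against 14895, 14430 and 6355 in wildtype. The difference was 5.66 (SE 0.88, limma adjusted p = 0.000946), and between 3.53 and 7.79 without each library in turn. Ranked by fold enrichment the groups overlapped (4271 and 670, against 13482, 10230 and 1955) and the difference was 1.93 (adjusted p = 0.137). Fold enrichment itself was 21.1 and 24.8 in the knockout, against 14.2, 12 and 16.1. Cdc20, the activator of the anaphase-promoting complex, ranked 288 and 1144, against 4836, 8742 and 8864, a difference of 3.65 (SE 0.59, limma adjusted p = 0.00118). By fold enrichment it was 0.69 (adjusted p = 0.534).

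Cdc25a ranked 418 and 409 at its start in the knockout libraries, against 5280, 2854 and 5115, with 3.36 by -log10 p (SE 0.54, limma adjusted p = 0.00107) and -0.38 by fold enrichment. Its far end differed by 2.13 (limma adjusted p = 0.00697), and by 1.64 under fold enrichment without a call. Cdc25c differed by 2.88 at its gene end (limma adjusted p = 0.00981) and -0.53 by fold enrichment, and Cdk1 by 1.89 (limma adjusted p = 0.0247) and -1.60. The directions of Cdc25a, Cdc25c and Cdk1 at the gene end thus depended on the ranking. Mcm3 showed a difference of 2.91 with a large error (SE 1.82, limma adjusted p = 0.249), and -3.16 by fold enrichment, neither of which was called.

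Counted by role, the 9 mitotic genes and Skp2 had 7 regions higher (38.9%, against 13.8% of all assigned regions) and 0 lower (against 10.2%) of 18 fitted by limma. At an unadjusted limma p under 0.05 the counts were 9 and 0, against 11831 and 8942 of 54235 assigned regions. By fold enrichment the calls were 4 higher and 0 lower of 15, against 14.3% and 9.44% of all. The median difference of the regions of these genes was 0.67 by -log10 p, against 0.02 over all assigned regions. By fold enrichment it was 0.27, against -0.12. Among the regions higher by -log10 p were Aurkb, the chromosomal passenger kinase (1.03 at its gene end, where fold enrichment gave -0.36, and 0.79 at a distal region), and Mki67 (1.75 and 0.72 at distal regions). The Mki67 region with 1.75 ranked 9397 and 7466 in the knockout libraries, against 35968, 31610 and 19835, and its call held without each library in turn. By fold enrichment it was 0.52 (adjusted p = 0.395). The shares of the other roles are to be read against the same 13.8% and 10.2%. For the 9 cyclin genes 5 were higher (12.8%) and 3 lower (7.69%) of 39, the gains being Ccnb2 (1.22, and 2.13 without a call by fold enrichment), Ccnd1 (1.15), Ccnd3 (1.77 and 1.24, but -0.41 and -0.35 by fold enrichment) and Ccne1. Kinases and Cdc25 phosphatases had 6 higher (24.0%) and 2 lower (8.00%) of 25. E2F and retinoblastoma family genes had 3 higher (9.68%) and 3 lower (9.68%) of 31. Those higher were at E2f2, Rbl1 (1.11) and Rbl2 (1.69), and by fold enrichment Rbl1 had 0.17 and Rbl2 0.98, both without a call. The Rbl2 region is the wildtype-only one above, ranked in the knockout by broad peaks with their summits elsewhere. The neighbouring Rbl2 region under the same knockout peaks differed by 0.83 without a call (limma adjusted p = 0.122), and by -0.33 under fold enrichment. Replication genes had 1 higher, Mcm7 (1.72, and 0.30 without a call by fold enrichment), and 2 lower of 15 (6.67% and 13.3%), which were distal regions of Mcm3 (-1.41) and Mcm6 (-1.15). The Mcm7 call was lost without knockout replicate 2 (limma adjusted p = 0.0692).

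Many calls were lost when 1 library was left out. Of the 32 calls, 9 held without knockout replicate 1 and 18 without knockout replicate 2, and 30, 18 and 24 held without wildtype replicates 1, 2 and 3. Without each library in turn 6 held: the Ccna1 promoter, the E2f7 gene end, the Cdc25a start, Cdc20, Top2a and the Mki67 region 19093 bp from the gene. Leaving out a knockout library leaves 1 in that group, and several differences hardly moved where the call was lost, as at the Cdk6 region inside the gene (-1.79, and -1.78 without knockout replicate 1), Rb1 (-0.96 and -0.97) and Bub1b (1.07 and 1.05). An exact permutation of 3 against 2 libraries could not go below 0.1, and the labels do not say whether replicates came from separate litters, so p-values measure the spread between these libraries.

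Promoter base composition moved with the difference over all genes. Over gene-end regions that covered a RefSeq promoter, the median difference by -log10 p was 0.39 in the lowest of 5 equal classes of promoter GC content and -0.27 in the highest, and -0.22 and -0.93 by fold enrichment. Top2a, at 47.7% GC, and Cdc20, at 58.7%, belonged to the lowest classes, 1 and 2. E2f7, at 75.3%, and Ccna1, at 74.0%, lay in the range of the highest class. Other gene ends went the other way by -log10 p, both without a call. E2f3, at 55.3%, differed by -2.46, and Mki67, at 72.7%, by 0.31. From the lowest class to the highest, the -log10 p medians of the cell cycle genes were 1.07, 0.29, 0.6, -0.44 and -1.1. These genes had between 3 and 10 regions in a class, and the part of base composition in their differences was not tested.

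**Figure D4:**
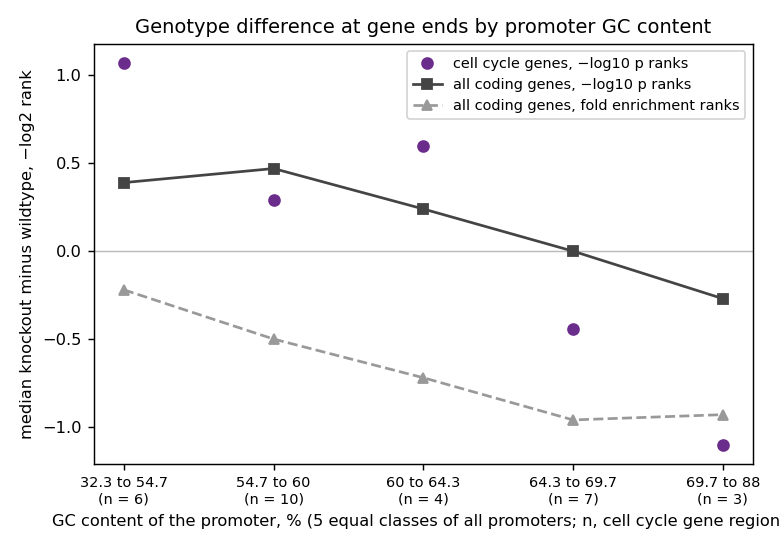
Median knockout minus wildtype difference of minus log2 rank (y axis) in 5 equal classes of promoter GC content (x axis, %), for gene-end regions of the cell cycle genes (purple points, with 3 to 10 regions each) and of all coding genes by -log10 p (black) and by fold enrichment (grey). Over all genes the -log10 p median runs between 0.47 and -0.27, lower at high GC content.

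Other genes of the cycle, 70 listed for comparison, had 28 of 123 fitted regions higher (22.8%, against 13.8% of all assigned regions) and 7 lower (5.69%, against 10.2%). Their median difference was 0.22, against 0.02 over all assigned regions. By fold enrichment 18 of the 119 matched regions were higher and 17 lower, against 14.3% and 9.44% of all. Called the same way by both rankings were 14 higher and 5 lower, against 8.20% and 6.79% of all. Among those, the gene ends of Cenpa, the centromeric histone (4.51, and 2.70 by fold enrichment), Espl1, the separase (2.55 and 4.34), Gins3 (1.75 and 2.57) and Rfc2 (1.60 and 2.83) rose. Those of Fbxo5, the Emi1 inhibitor of the anaphase-promoting complex (-3.54 and -2.60), and Lin54, the DNA-binding subunit of the complex that reads the CHR (-1.35 and -1.89), fell. Distal regions of Cdc7, Cenpa, E2f6, Fbxw7, Lin52, Mnat1, Rpa1 and Rrm2 rose and those of Ccnh and E2f6 fell under both. Called higher at a gene end by -log10 p alone were Ccnf, Cks2, Gins2, Gins4, Incenp, Lin37, Mnat1, Prc1, Rfc5, Rpa2, Tk1, Tpx2 and Uhrf1, and lower was Cenpe. Of these 13, Ccnf, Cks2, Gins2, Gins4, Incenp, Lin37 and Prc1 were below 0 by fold enrichment, and Mnat1 had no value there.

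Sox4 sites were about as frequent at these genes as over all coding genes. A Sox4 site had a window among the 20000 strongest peaks of at least 2 of the 3 replicates, and 3 of the 46 genes had one (6.52%, exact 95% binomial interval 1.37 to 17.9%), against 6.47% of all coding genes. The 70 other cell cycle genes had 5 (7.14%), namely Fbxo5, Cdk7, Lin54, Wee1 and Orc6. Over all the genome 1706 sites were found, and 1.62% of all assigned ATAC regions overlapped one.

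At Mcm7 the site (chr5:138170827-138171523) was present in all 3 replicates, with list ranks of 82, 63 and 6066 and fold enrichments of 8.08, 6.89 and 3.16. It covered the second Mcm7 promoter, shown above, whose letters hold no match to either Sox motif searched. The ATAC region over it hardly differed, with common ranks of 4876 and 4859 in the knockout libraries, against 5145, 5732 and 4818 (0.10, limma adjusted p = 0.87). The Mcm7 region that did rise lies at the other promoter, outside the site, and ranked 6885 and 4817, against 14392, 21163 and 22458. At Pcna the site (chr2:132252744-132253344) ranked 143979 in replicate 1, 5382 in replicate 2 and 156 in replicate 3. At E2f3 (chr13:29986070-29986680), it ranked 58703, 2104 and 5879, so replicate 1 placed both outside its 20000 strongest peaks. The Pcna and E2f3 sites overlapped the promoters shown, whose letters again held no Sox match. All 3 sites reached beyond these promoters, and sequence outside the promoters was not searched. ATAC regions over the 3 sites were open in all 5 libraries.

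Weaker Sox4 signals were counted as well. In at least 1 replicate, 73 windows lay near 29 of the 46 genes, where 61.3% of all coding genes had one. That share lay near the one over all coding genes. A Sox4 peak of any rank overlapped 26 of the 151 ATAC regions of these genes in at least 1 list (17.2%), against 18.7% of all assigned regions, and 4 in all 3 lists (2.65%), against 1.00% of all. Sites assigned to these genes (3) numbered 1 without replicate 2 and 1 without replicate 3, and 17 when every deposited peak was used. In the sources used here no site count can be set against a control antibody.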

How the data were processed

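ATAC-seq of cochlea at E13.5 (SoxC double knockout, 2 libraries; wildtype, 3) and Sox4 CUT&RUN of sorted p27-positive progenitors (3) were used. Groups came from titles and genotype labels. Per the submitters' processing notes, MACS2, STAR, deepTools and UMI-tools were used, without versions, on mm10 (GRCm38). The authors deposited 1 peak list per library, with fold enrichment as a ratio, significance as -log10 p and -log10 q, and the summit as an offset in bp. Names of the knockout lists state a p threshold of 0.01 and a cap written as 300K, and those of wildtype do not. Wildtype lists held no X or Y peaks, so only autosomes 1 to 19 were used. Depth is not known. The 2 single-cell libraries were not used, since their rows could not be tied to genes here.

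Within each library, peaks that overlapped were merged, then ranked by -log10 p. Windows of 250 bp each side of the summit of the 50000 strongest peaks (20000 for Sox4) were merged across libraries into regions and assigned to the nearest coding gene of RefSeq GRCm38.p6 within 100 kb. A region counted at the rank of the best peak that overlapped it, so 1 broad peak can serve 2 regions. Ranks were compared with limma 3.58.1 in R 4.3.3 (empirical Bayes with a trend). On simulated data, with 200 of 61050 regions of the knockout against wildtype ranks shifted by 3 log2 units, 94 were recovered and 2 unshifted ones were called. The simulation used independent noise and no difference in list making between the genotypes, so it cannot measure false calls in the real lists. Shares carry exact Clopper-Pearson 95% intervals (scipy 1.17.1).

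Named were the 8 genes with the best worst rank at a gene end, genes without such a region, genes with a region in 1 genotype or a call, the 6 largest differences each way, and genes with a Sox4 site. Where a rule would name many regions, values are given for the regions that differed under both rankings and the largest of the others. The genes and lists were chosen with earlier results of these data known. Alternatives varied the peak number, ranking value, region building, distance, gene-end limit, model and libraries used; -log10 q of at least 5 was a stricter threshold. The values of 1 gene on the comparison list are not reported here, although the counts over that list include it.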

Additional observations from a re-analysis of the deposited data

How the results depend on the processing

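Counts of calls moved with single libraries and with the ranking. Called regions of the cell cycle genes (32; 22 higher, 10 lower) ranged between 11 and 33 without 1 library each, the higher ones between 9 and 23 and the lower ones between 2 and 10; leaving a lone knockout library assumes that it varies like the others. By fold enrichment 11 were higher and 18 lower, and 6 called regions reversed without a call: Aurkb gene end (-0.36), Ccnd3 at 47595739 (-0.35) and 47510989 (-0.41), Cdk1 (-1.60), Cdc25c gene end (-0.53) and Cdc25a start (-0.38). No other alternative reversed a called region. With the replicate block 41 regions were called (30 higher, 11 lower); deviations of same-numbered libraries correlated at 0.0955 and 0.0711, and the labels do not pair them. Regions in 1 genotype (19) numbered 36 with 100000 peaks (27 knockout, 9 wildtype) and 57 with all peaks (51 knockout). Knockout-only regions were 8 with 25000 peaks, wildtype-only ones 3 with full peak extents, and without 1 library each the wildtype-only count ran between 5 and 9. Open gene ends ranged between 35 and 42 of 46. Sox4 sites (3) were 17 with all peaks, 1 in all 3 replicates, 14 in a further deposited list of replicate 1, of which Mcm7 and Pcna overlapped sites, and between 1 and 3 without 1 replicate. The gene-end count with shared regions was added after seeing the data. No value carries a depth, so weak peaks near rank 50000 are the least certain.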
